A study of Mus musculus with 9 samples.

Results

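Gene expression of epiblast-like cells (EpiLC) was set against that of mouse embryonic stem cells kept in serum with leukaemia inhibitory factor (mESC-ser), a pair that places a formative state beside a heterogeneous serum culture. The libraries were taken by their culture label, which gave 6 of the 9 samples of the series, 3 EpiLC and 3 mESC-ser. All 6 held poly-A RNA of the E14 line (strain 129/Ola), so every replicate came from 1 cell line. mESC-ser were grown on 0.1% gelatin in DMEM with 15% foetal bovine serum and 10 ng/mL mouse LIF. EpiLC were made from naive mESC on human plasma fibronectin, in the serum-free medium N2B27 with 20 ng/mL activin A, 12 ng/mL bFGF and 1% KSR, a serum replacement. The groups therefore differed in medium, coating, growth factors and starting state at once, and the contributions of these to a difference cannot be told apart. The labels call the replicates biological, and p-values measure the spread between these cultures.

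Pluripotent mouse cells in culture can be held in states that resemble successive stages of the epiblast. Naive cells depend on LIF, which signals through gp130 and STAT3, and on a network of factors such as Klf4, Esrrb and Tfcp2l1. Formative cells, which EpiLC model, have left that network, express Fgf5, Otx2 and Pou3f1, and are able to respond to signals for the germ layers and the germline. Serum with LIF gives a mixed culture, in which BMP from serum induces Id genes and cells move between naive and more advanced states. RNA from whole cultures cannot separate fewer cells of a type from less RNA of a gene in each cell.

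The counts of a library totalled 8552600 to 10651090 in EpiLC and 11334906 to 16829549 in mESC-ser. After the filter on low counts, 15345 genes were tested with edgeR's quasi-likelihood test, with p-values adjusted by Benjamini-Hochberg. Genes past an adjusted p of 0.05 whose log2 fold change exceeded 0.5 in either direction are referred to as called, higher or lower. This called 11246 genes (73.3%), of which 5444 (35.5%) were higher and 5802 (37.8%) lower in EpiLC. With total-count scaling in place of TMM the split was 4294 higher and 7195 lower, and the median log2 fold change over all tested genes moved from -0.068 to -0.41, so changes smaller than that shift depend on the scaling. In 85.7% of tested genes the ranges of the 2 groups were apart, so a call alone separates a gene little from the rest of the transcriptome. By chi-square on raw counts, mESC-ser replicate 3, also the library with the most counts, stood further from its group than any other library. The value per degree of freedom was 11.02 and 11.14 against the other mESC-ser replicates, beside 1.62 between those and 2.197 to 4.58 among EpiLC. In log2 CPM it correlated with them at 0.99137 and 0.99111, beside 0.99453 between those and 0.99103 to 0.99205 among EpiLC, so it did not stand out from EpiLC pairs by that measure. The biological coefficient of variation was 0.0613 in EpiLC and 0.0946 in mESC-ser.

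Short genes were higher and long genes lower in EpiLC, and the lists below are therefore also counted with an adjustment for length. Over the 20 length bins of protein-coding genes, the median log2 fold change ran from 1.79 among genes with 204 to 1329 bp of exonic sequence to -1.46 among those with at least 12513 bp. The shortest eighth of the genes took 26.5% ± 0.117 (SD, n = 3) of protein-coding counts in EpiLC and 11.3% ± 0.2998 in mESC-ser, and the longest eighth 6.91% ± 0.212 and 18.2% ± 0.798. The groups did not overlap in either share, with an exact two-sided permutation p of 0.1, the smallest that 3 against 3 libraries can give. Spearman's rho between length and log2 fold change was -0.498 across genes, which are not independent replicates. A second fit with offsets for length and GC content in each library brought rho to -0.128. It called 8327 genes (54.3%) in the same direction as the first, 4372 (28.5%) higher and 3955 (25.8%) lower. The offsets left a median log2 fold change of 0.97 in the shortest bin and 0.62 in the next, both past the fold threshold. Higher calls of the shortest genes in both fits may thus still hold part of the length trend. Below, "in both fits" means called by both, and a length-relative difference is the log2 fold change of a gene minus the median of its length bin. Counts of list members are to be read beside the shares over all tested genes. These were 35.5% higher and 37.8% lower without offsets, and 28.5% and 25.8% in both fits. RNA quality and fragment length were not given in the sources used here, and their part in the length trend was not tested.

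**Figure D1:**
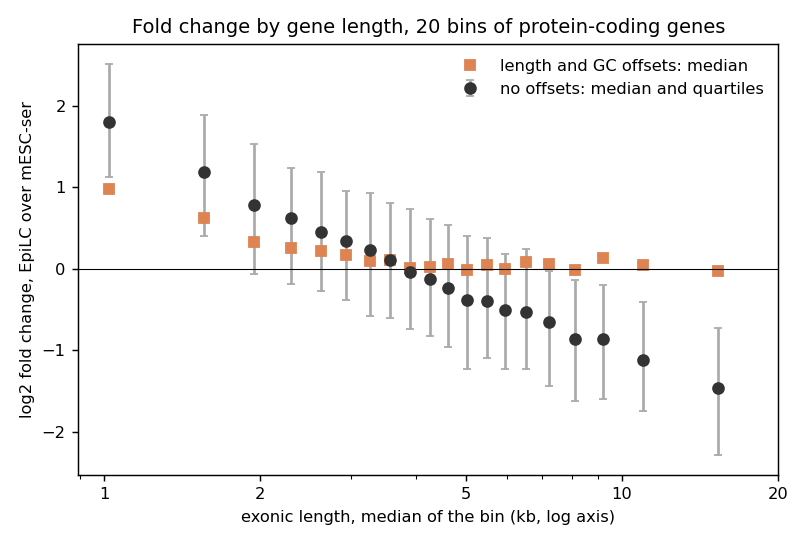
Log2 fold change of EpiLC over mESC-ser (vertical axis) against exonic length in kilobases on a log axis (horizontal axis), as the median of each of 20 bins of tested protein-coding genes, with bars from the lower to the upper quartile and squares for the median with length and GC offsets. The bin medians fall from 1.79 in the shortest bin to -1.46 in the longest.

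Of the general pluripotency factors, most differed little and a few differed strongly. Pou5f1, the POU factor that pluripotent cells require, stood at 976, 1016 and 1026 CPM (counts relative to library size) in EpiLC and 802, 827 and 713 in mESC-ser, with a log2 fold change of 0.44 (SE 0.083) that was below the fold threshold and a length-relative difference of -0.19. Sox2, its partner on DNA, was at 58.2, 58.0 and 69.0 CPM against 467, 477 and 568, lower by 7.77-fold. Trim71, an RNA-binding repressor of differentiation genes, was at 4.13, 3.39 and 7.53 CPM in EpiLC and 241, 268 and 313 in mESC-ser, for a log2 fold change of -5.71 (SE 0.18) and -4.85 against its length bin. In all, 1 of 10 members was higher and 3 were lower, Sall4 being the remaining lower one. The higher one was Utf1, a chromatin factor of pluripotent cells, at 837, 957 and 907 CPM against 333, 316 and 365, whose length-relative difference was -0.31. Lin28a, which blocks let-7 maturation, Dppa2 and Dppa4 were not called, with log2 fold changes from -0.34 to 0.38.

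The naive network was lower in EpiLC with 1 exception. Of 16 members, 15 were lower in both fits, with a list median of -4.58 and -4.82 relative to length, beside -0.068 over all tested genes. Klf4 was at 1.86, 0.655 and 1.26 CPM in EpiLC and 141, 137 and 173 in mESC-ser, for a log2 fold change of -6.86 (SE 0.18). Tfcp2l1, which acts downstream of LIF and of GSK3 inhibition, was at 3.73, 4.48 and 5.52 CPM against 270.2, 280.00 and 329. Nr5a2, a nuclear receptor that can drive Pou5f1, was at 0.533, 0.546 and 1.13 CPM against 59.1, 55.3 and 58.0. For each of these the groups stood far apart in every library. Prdm14, a repressor of FGF signalling and DNA methylation, held 3 counts or fewer in every EpiLC library and 10.47, 10.2 and 14.503 CPM in mESC-ser, which makes it at least 29.4-fold lower. Nanog kept more of its level, at 59.3, 58.7 and 65.7 CPM in EpiLC against 297, 296 and 257, or 4.41-fold lower, and Dppa3, a maternal factor that guards against methylation, was 3.23-fold lower from a level of only 15.1, 16.8 and 14.3 CPM in mESC-ser. The exception was Dppa5a, an RNA-binding protein of naive cells, at 768, 839 and 703 CPM in EpiLC and 332, 338 and 226 in mESC-ser. It was higher by 2.70-fold in the fit without offsets, was not called with them, and lay -0.36 from the median of its length bin.

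**Figure D2:**
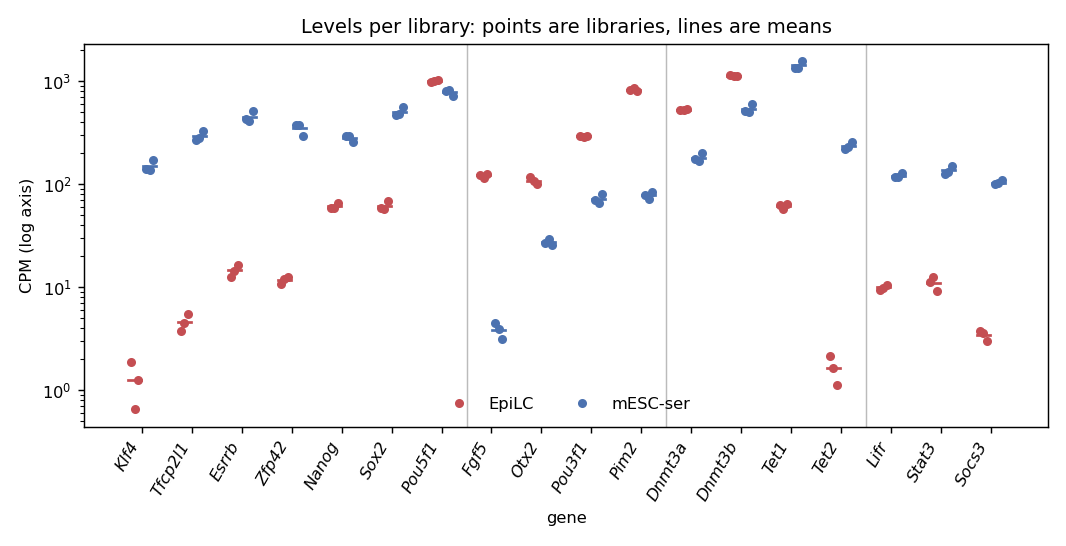
CPM on a log axis (vertical) of 18 genes of the naive and core, formative, DNA methylation and LIF lists (horizontal, separated by lines), with 1 point per library, lines at the means, EpiLC in red and mESC-ser in blue. Klf4, Tfcp2l1 and Tet2 are far lower in EpiLC, Pou5f1 lies at a like level in both groups, and Fgf5 is far higher in EpiLC.

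The formative genes split into those that set EpiLC apart from serum cells and those that did not. Fgf5, an epiblast growth factor, was at 124, 116 and 126 CPM in EpiLC and 4.48, 3.91 and 3.17 in mESC-ser, for a log2 fold change of 5.06 (SE 0.12). Pim2, a serine kinase, followed at 821, 859 and 801 CPM against 78.3, 72.2 and 84.9, and Sox3, a SoxB1 factor like Sox2, at 60.3, 63.2 and 56.4 against 6.75, 7.57 and 11.1. Otx2 and Pou3f1, which help to establish the formative state, were higher by 4.18-fold and 4.24-fold, but mESC-ser held them at 26.8, 29.2 and 25.8 CPM and 70.6, 65.7 and 80.6 CPM. In total 9 of 16 members were higher and 2 lower in both fits, with a median length-relative difference of 1.07. Cdh2 (N-cadherin) was among the lower ones, at 5.06, 2.84 and 5.02 CPM against 22.03, 21.6 and 22.4. Foxd3 and Tcf15, further epiblast factors, were not called without offsets, at -0.29 and 0.35. With length and GC offsets Tcf15 was called lower, and the list gave 10 higher and 4 lower. Sox2 and Sox3 thus moved in opposite directions, by -2.96 and 2.88 on the log2 scale.

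Of the DNA methylation genes, Dnmt3a and Dnmt3b were higher and Tet1 and Tet2 lower in EpiLC, and the others went in either direction. In all, 4 of 11 members were higher and 6 lower, or 4 and 5 in both fits, where 28.5% and 25.8% of all tested genes were. Dnmt3a and Dnmt3b, the de novo methyltransferases, stood at 526, 529.6 and 537 CPM and 1159, 1121 and 1133 CPM in EpiLC, against 175, 168 and 200.2 and 516, 499 and 603 in mESC-ser. Their log2 fold changes were 1.62 (SE 0.082) and 1.15 (SE 0.083), and 3.08 and 1.53 against genes of like length. Tet1, which oxidises 5-methylcytosine, was at 62.9, 57.0 and 64.8 CPM against 1353, 1360.4 and 1560.4, and Tet2 at 2.13, 1.64 and 1.13 against 218, 228 and 257, lower by 22.04-fold and 136-fold. Both transcripts are long, and the length-relative differences were -3.004 and -5.63. Tet3 was called in opposite directions by the fits, at -0.70 without offsets and 0.52 with them, so no direction is given for it. The maintenance methyltransferase Dnmt1 was lower by 2.96-fold, and its recruiter Uhrf1 higher by 1.46-fold, in both fits, although Uhrf1 fell below the fold threshold, at a log2 fold change of 0.49, without mESC-ser replicate 2. Dnmt3l, the cofactor of Dnmt3a and Dnmt3b, went against its partners at 185, 191 and 184 CPM in EpiLC and 384, 384 and 407 in mESC-ser.

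Of the 2 media, only that of mESC-ser is listed with LIF, and the genes of its pathway were lower in EpiLC from receptor to target. All 10 members were lower, 9 of them in both fits, with a median of -3.28 and -2.54 relative to length. The receptor chains Lifr and Il6st (gp130) were at 9.46, 9.94 and 10.54 CPM and 10.52, 9.28 and 10.3 CPM in EpiLC, against 118, 116 and 128 and 78.1, 84.3 and 95.02 in mESC-ser. Stat3, the transcription factor they activate, was at 11.3, 12.7 and 9.29 CPM against 126, 133 and 151. The smallest of these differences was that of Il6st, at 8.16-fold, and the groups did not overlap for any. Among direct targets, Socs3, the feedback inhibitor of gp130, was at 3.73, 3.60 and 3.01 CPM against 99.5, 103 and 109.8, a log2 fold change of -4.84 (SE 0.12). Bcl3, an atypical inhibitor of NF-kappaB, was lower by 30.1-fold and the kinase Pim1 by 11.8-fold, whereas its relative Pim2, listed with the formative genes, was higher by 11.1-fold. Cish, another feedback inhibitor of cytokine receptors, differed least, at -0.73 (SE 0.19), and was not called with offsets. Socs3 was the only 1 of 10 members (10%) whose 250 bases before the RefSeq start held the STAT motif TTCNNNGAA, beside 6.88% of 10397 tested genes with such a window. The stretch around it (chr11:117969490-117969542, - strand of GRCm38.p6) is shown 5′ to 3′ with the motif in capitals because Socs3 is the feedback arm of the pathway.
Socs3: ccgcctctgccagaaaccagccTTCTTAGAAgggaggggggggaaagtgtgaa

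Serum also brings BMP, and most of the Id genes, its targets, were lower in EpiLC. Id1, which blocks basic helix-loop-helix factors, was at 4.13, 4.26 and 4.39 CPM in EpiLC and 42.6, 45.6 and 48.7 in mESC-ser, for a log2 fold change of -3.35 (SE 0.12). Id2 was 3.48-fold lower and Id4 at least 7.96-fold lower, but Id3 stood at 22.8, 21.2 and 16.3 CPM against 25.1, 28.0 and 27.1 and was called only with offsets. The ligand gene Bmp4 was at 4.26, 3.28 and 4.90 CPM against 26.2, 30.0 and 33.9, and the type II receptor Bmpr2 at 1.20, 0.655 and 1.88 against 24.7, 22.9 and 30.2. Smad1 and Smad5, which carry the signal, were lower without offsets only, with length-relative differences of -0.11 and -0.65, so they lay closer to other genes of their length than the targets did. Of 16 members, 12 were lower and 2 higher, or 9 and 1 in both fits. The higher member was Bambi, a decoy receptor, at 12.8, 12.7 and 12.4 CPM against 6.95, 7.91 and 6.62.

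EpiLC medium contains activin A, which signals through the receptors of Nodal, and its feedback inhibitors were higher. Lefty1 was at 209.8, 205 and 183 CPM in EpiLC and 39.6, 39.3 and 46.6 in mESC-ser, and Lefty2 at 127, 112 and 129 against 43.7, 40.1 and 42.9, log2 fold changes of 2.32 (SE 0.092) and 1.61 (SE 0.086). Nodal itself stood at 84.0, 80.9 and 80.6 CPM against 62.5, 59.2 and 55.3 and lay -0.24 from its length bin. It was called without offsets, but not without mESC-ser replicate 3, where its log2 fold change was 0.49. The co-receptor Tdgf1 (log2 fold change 0.048, 95% interval -0.17 to 0.26) and the related ligand Gdf3 (0.30, 0.094 to 0.50) were not called. The receptor Acvr2b was 2.35-fold lower in both fits, and Smad2, a transducer, was lower without offsets only. Counts over the list were 4 higher and 6 lower of 14, or 3 and 3 in both fits, and 4 and 1 with offsets from the length of the principal transcript of each gene. Over all tested genes 28.5% were higher and 25.8% lower in both fits.

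FGF2 was likewise given to EpiLC alone, and the ligands and feedback genes of the FGF and ERK pathway differed in both directions. Fgf8 and Fgf15, ligands of the early embryo, were at 28.9, 31.8 and 27.9 CPM and 84.7, 86.0 and 88.6 CPM in EpiLC, against 1.31, 1.08 and 1.38 and 10.7, 10.2 and 9.96 in mESC-ser. Fgf4, the autocrine ligand of ES cells, was at 126, 128 and 130.2 CPM against 139, 134 and 148, with a 95% interval of the log2 fold change of -0.22 to 0.099. The ERK inhibitors Spry2 and Spry4 were lower by 7.11-fold and 4.06-fold, and Spred1 and Spred2 by 3.97-fold and 2.55-fold. Dusp6, the ERK phosphatase that ERK induces, was higher by 1.63-fold, at 158, 147 and 167 CPM against 105, 104 and 94.7. The ERK-responsive factors Etv4 and Etv5 were not called, at -0.056 and -0.44. Of 18 members, 3 were higher and 7 lower in both fits.

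Targets of Wnt signalling were split as well. Axin2, a feedback scaffold, was at 8.13, 6.01 and 7.66 CPM in EpiLC and 30.8, 29.6 and 37.3 in mESC-ser, Notum, a secreted Wnt deacylase, at 1.73, 1.64 and 1.76 against 38.6, 40.4 and 47.7, and Sp5, a repressor induced by Wnt, was at least 26.2-fold lower. The Dishevelled antagonists Nkd1 and Nkd2 were higher instead, by 2.998-fold and 3.21-fold, from 2.203, 2.58 and 1.90 CPM and 1.65, 1.91 and 2.36 CPM in mESC-ser. Of the Wnt-regulated T cell factors, Lef1 was higher by 1.61-fold in both fits. In all, 2 of 9 listed targets were higher and 5 lower in both fits.

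Genes that respond to serum within minutes were more often lower than higher in EpiLC. Of 17 members, 9 were lower and 5 higher, 9 and 3 in both fits. Over all tested genes 37.8% were lower and 35.5% higher, or 25.8% and 28.5% in both fits. Junb and Nr4a1 were lower by 3.13-fold and 2.38-fold, Egr1 was at 18.2, 11.4 and 14.6 CPM against 33.7, 34.7 and 40.3, and Fos was low in both groups, at 0.533, 0.546 and 0.377 against 3.17, 2.33 and 4.66. Myc was at 51.1, 52.1 and 52.2 CPM in EpiLC and 135, 119.9 and 138 in mESC-ser. Ier5 went the other way, at 35.0, 34.8 and 34.0 CPM against 7.57, 7.24 and 7.54, as did Jund, a Jun protein expressed without stimulation, by 2.69-fold. Jund is short, however, and lay only 0.24 above the median of its length bin, a difference that changed sign with wider bins.

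Serum and adhesion also act on the actin cytoskeleton through SRF and through YAP with TEAD factors, and the secreted targets of YAP separated the groups most. Ccn1 and Ccn2, matricellular proteins, were at 4.93, 6.22 and 6.15 CPM and 9.99, 8.52 and 7.28 CPM in EpiLC, against 77.5, 77.2 and 75.05 and 121, 119 and 126 in mESC-ser. Thbs1 (thrombospondin), which also activates latent TGF-beta, was at 2.40, 1.75 and 2.89 CPM against 139, 130.4 and 165, a log2 fold change of -5.89 (SE 0.15) and -5.39 relative to length. Acta2 and Tagln, contractile genes of smooth muscle, were lower by 7.78-fold and 6.84-fold. Other cytoskeletal genes differed in the opposite direction or little, with Tpm2 and Cnn1 higher by 2.19-fold and 1.98-fold in both fits, and Actb at 3775, 3775 and 4029 CPM against 2658, 2623 and 2895. Over the list, 5 of 17 were higher and 11 lower, 2 and 10 in both fits. Tead2, the TEAD gene listed with the formative factors, was higher, at 380.3, 390.2 and 389 CPM against 122, 117 and 134.

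In the 250 bases before their RefSeq start, 7 of the 13 list members with a window (53.8%) held the TEAD motif GGAATG on either strand, beside 12.8% of tested genes, and 4 (30.8%) held the SRF-binding CArG box, beside 1.45%. The list was put together from known targets of these factors, so the shares describe its members and are no finding about the cultures. Of the 10 members with a match to either motif, Actg1, Acta2, Cnn2, Flna, Ccn1 and Amotl2 were lower in both fits, Vcl was lower and Tagln2 and Myl9 higher without offsets only, and Tpm1 was not called in either. Tagln2 was not called without mESC-ser replicate 3, at a log2 fold change of 0.48. The stretches of 5 members on GRCm38.p6 are Acta2 (chr19:34255492-34255541, - strand), Ccn1 (chr3:145650061-145650110, - strand), Amotl2 (chr9:102717717-102717766, + strand), Cnn2 (chr10:79988522-79988575, + strand) and Vcl (chr14:20929149-20929282, + strand), and are given 5′ to 3′ on the strand of the gene with motif matches in capitals, to show which of the motifs each carries. Capitals mark the TEAD motif, or its reverse complement CATTCC, in Acta2, Ccn1 and Amotl2, the CArG box in Cnn2, and both motifs in Vcl.
Acta2: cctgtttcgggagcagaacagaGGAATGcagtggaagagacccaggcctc
Ccn1: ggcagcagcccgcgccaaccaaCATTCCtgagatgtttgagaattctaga
Amotl2: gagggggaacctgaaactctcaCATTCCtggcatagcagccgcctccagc
Cnn2: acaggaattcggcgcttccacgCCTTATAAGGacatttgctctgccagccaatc
Vcl: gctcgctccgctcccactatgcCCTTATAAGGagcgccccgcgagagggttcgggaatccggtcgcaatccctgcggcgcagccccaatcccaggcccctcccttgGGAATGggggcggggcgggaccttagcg

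Basement membrane and integrin genes were lower almost throughout, and many of them have long transcripts. Without offsets 17 of 18 members were lower and 0 higher, and 15 were lower in both fits, while the median moved from -1.95 to -1.19 relative to length. With offsets from the principal transcript 12 were lower. Fn1 (fibronectin), whose protein coats the EpiLC dishes, was at 104, 103 and 100.2 CPM in EpiLC and 969, 956 and 1187 in mESC-ser, for a log2 fold change of -3.27 (SE 0.095) and -2.15 relative to length. Nid1, which links laminin to collagen IV, was at 4.53, 3.28 and 3.26 CPM against 135, 129.9 and 155, and the collagen IV chain Col4a1 and the laminin chain Lama1 at 11.1, 13.2 and 14.1 and 3.20, 4.37 and 2.26 against 92.8, 82.4 and 109 and 112, 110.5 and 133. The integrin chains Itga5 and Itgav, which pair to bind fibronectin with Itgb1 and Itgb3, were lower by 3.07-fold and 5.14-fold. Lama5, a laminin chain of the epiblast, was lower without offsets only and lay 0.38 above its length bin, and Col18a1 was not called.

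Sterol synthesis was higher in EpiLC at almost every step. Of 25 members, 22 were higher and 0 lower, 21 higher in both fits, with a median log2 fold change of 1.46 and 1.33 relative to length. Hmgcs1, which makes HMG-CoA at the start of the mevalonate pathway, was at 299, 245 and 339 CPM in EpiLC and 199.6, 187 and 193 in mESC-ser. It had a smaller fold change than several later steps, and with total-count scaling it fell below the fold threshold. Mvd, the last step before isopentenyl diphosphate, was at 137, 142 and 129 CPM against 27.1, 23.9 and 27.8, Fdft1 (squalene synthase) at 202, 204 and 202 against 40.9, 37.3 and 37.0, Msmo1, which removes methyl groups from the sterol ring, at 279, 277 and 267 against 45.6, 43.1 and 39.7, and Dhcr7, the final step to cholesterol, at 135, 149 and 138 against 31.1, 29.1 and 35.7. Their log2 fold changes were 2.44 (SE 0.089), 2.47 (SE 0.084), 2.75 (SE 0.087) and 2.201 (SE 0.091), beside 0.68 (SE 0.10) for Hmgcs1.

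Srebf2, the transcription factor that drives these genes, was not called, at -0.051 (SE 0.082), while Insig1, which retains it in the endoplasmic reticulum and is its target, was higher by 2.33-fold. Hsd17b7 was also below the threshold without offsets, at -0.13 (SE 0.12). Both Srebf2 and Hsd17b7 lay above the median of their length bin, as did all 25 list members. Srebf2 was called higher with length offsets only. Hmgcs1 was the only 1 of 17 members with a promoter window (5.88%) to hold the sterol regulatory element TCACNCCAC within 250 bases of its RefSeq start, beside 1.32% of tested genes. Its stretch (chr13:119690192-119690244, + strand of GRCm38.p6) is shown 5′ to 3′ with the element in capitals, as the gene opens the mevalonate pathway.
Hmgcs1: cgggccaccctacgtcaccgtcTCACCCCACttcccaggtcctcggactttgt

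**Figure D3:**
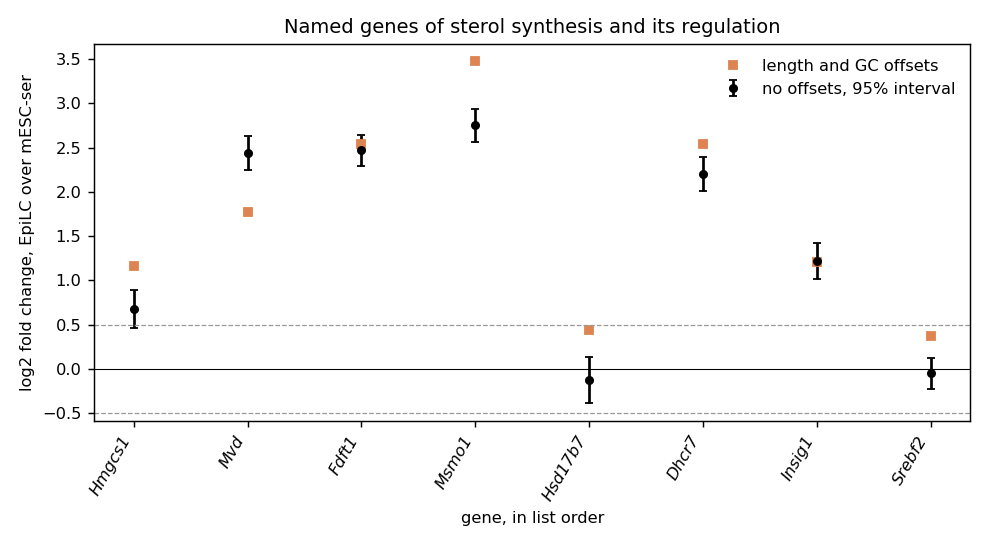
Log2 fold change of EpiLC over mESC-ser (vertical axis) for the members of the sterol list named in the text, in list order (horizontal axis), with 95% intervals as bars, the values with length and GC offsets as squares and the fold threshold as dashed lines. Msmo1 lies highest of these genes without offsets, and Srebf2 and Hsd17b7 lie near 0.

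Fatty acid synthesis showed its difference mainly against genes of like length. Of 12 members, 4 were higher and 1 lower, against 3 higher and 4 lower with total-count scaling, the median log2 fold change was 0.12, and the median length-relative difference was 0.95. The desaturases Scd1 and Fads1 were higher in both fits, at 247, 230.1 and 220.2 CPM and 129, 128 and 132 CPM in EpiLC against 65.4, 61.0 and 75.9 and 37.8, 33.9 and 43.0 in mESC-ser. Fasn and Acaca, the long transcripts of fatty acid synthase and acetyl-CoA carboxylase, had log2 fold changes of -0.29 (SE 0.096) and -0.22 (SE 0.081) and lay 0.84 and 1.24 above their length bins. Srebf1, the regulator of these genes, was higher by 1.77-fold.

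Genes of glucose metabolism differed in both directions. The transporters Slc2a1 and Slc2a3 (GLUT1 and GLUT3) were lower, Slc2a3 at 54.6, 54.2 and 52.97 CPM in EpiLC against 945, 914 and 1025 in mESC-ser, and so was hexokinase Hk2, at 65.9, 73.4 and 74.4 against 343, 346 and 433. Further down, Aldoa (aldolase) was at 3155, 3351 and 3159 CPM against 939.99, 959 and 910.02 and Ldha, which makes lactate, at 2408, 2497 and 2187 against 727, 738 and 644, log2 fold changes of 1.85 (SE 0.079) and 1.82 (SE 0.090). Slc16a3 (MCT4), a lactate exporter, was at 622, 642 and 650.4 CPM against 103, 103 and 103, higher by 6.47-fold. Pkm, the last glycolytic enzyme, was not called, at -0.17 (SE 0.083). Of 24 members, 10 were higher and 5 lower in both fits, against 12 and 8 without offsets, or 9 and 9 there with total-count scaling.

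Serine synthesis and the ATF4 response were higher. The 3 enzymes from glycolysis to serine, Phgdh, Psat1 and Psph, stood at 145, 158 and 134, at 564, 581 and 537 and at 70.7, 72.4 and 73.7 CPM in EpiLC, against 49.6, 49.1 and 36.8, 266, 277 and 189.6 and 26.9, 31.0 and 19.9 in mESC-ser. Replicate 3 of mESC-ser was the lowest library for all 3. Atf4 was 2.28-fold higher, and its targets Chac1, which degrades glutathione, and Trib3, a pseudokinase, were 5.34-fold and 2.96-fold higher. Asns and Sesn2, further targets, were not called, at 0.21 (SE 0.075) and 0.29 (SE 0.088). In both fits 11 of 15 members were higher and 0 lower. Tdh, the threonine dehydrogenase on which mouse ES cells rely, was lower, at 75.5, 77.2 and 68.9 CPM against 165, 159.6 and 150.1, while Gcat, the next enzyme of that route, was higher, at 117, 122 and 106 against 32.6, 35.0 and 33.8.

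Ribosomal and respiratory chain genes were higher nearly without exception, and their transcripts are among the shortest. Of 83 cytosolic ribosomal protein genes 82 were higher, of 75 mitochondrial ones 72, of 80 nuclear-encoded respiratory chain subunits 77, and of 38 proteasome subunits 28. The medians were 2.32, 1.51, 2.07 and 1.01 in that order. Against genes of like exonic length they came to 1.34, 0.90, 0.82 and 0.56. Exonic length summed over all transcripts overstates these mRNAs, with a median of 1770 bp against 878.00 bp for the principal transcript of cytosolic ribosomal proteins. Set against genes of like principal transcript length, an alternative chosen after seeing the data, the medians were 0.74, 0.44, 0.28 and 0.0063. The proteasome median thus lay close to that of genes of like principal length, and 76 of 83 cytosolic ribosomal protein genes still lay above the median of their bin. The shortest of these bins spans 63 to 918 bp, and many of these transcripts lie at its short end. Mitochondrially encoded genes took 5.996% to 6.52% of counts in EpiLC and 3.66% to 4.31% in mESC-ser. Those that code for protein were not left out of the length bins or of the shares by length.

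**Figure D4:**
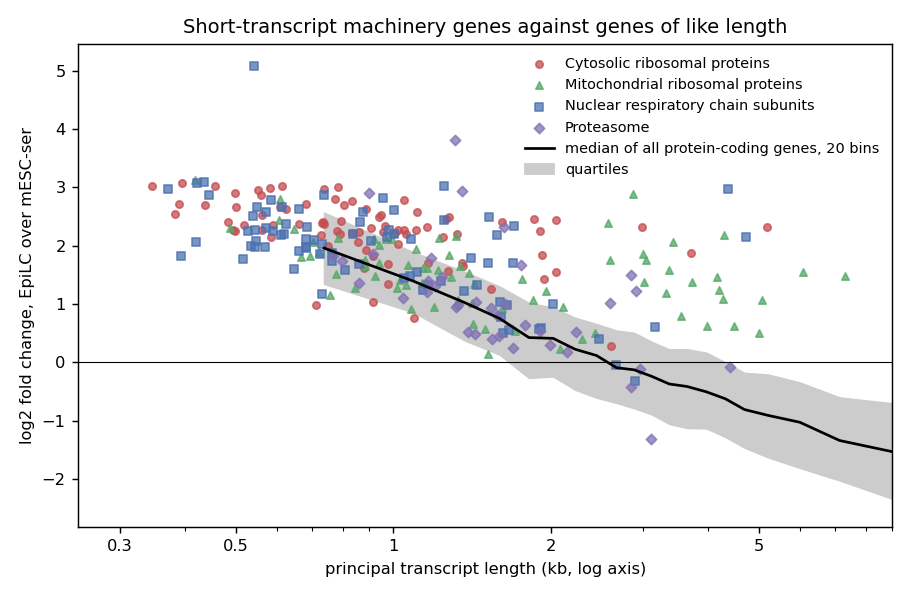
Log2 fold change of EpiLC over mESC-ser (vertical axis) against the length of the principal transcript in kilobases on a log axis (horizontal axis) for ribosomal, respiratory chain and proteasome genes, with the median of all tested protein-coding genes in 20 length bins as a line and their quartiles as a grey band. Proteasome genes scatter on both sides of the line and most cytosolic ribosomal protein genes lie above it.

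Some members stood out from these lists. Rps21 and Rps27, of the small subunit, were at 1520.3, 1668 and 1472 and 1399.9, 1443 and 1261 CPM in EpiLC, against 197, 206 and 175 and 174, 199.7 and 158 in mESC-ser. Many ribosomal protein genes have processed pseudogenes of near-identical sequence, so how reads were split between them is uncertain. Psmd1, a large subunit of the regulatory particle, was the only lower subunit, at 126, 138 and 137 CPM against 376, 372 and 306. Psmb10, a catalytic subunit of the immunoproteasome, was at 252, 281 and 246 CPM against 18.8, 22.3 and 17.6, a log2 fold change of 3.81 (SE 0.11) and 2.78 even against principal transcripts of its length. Cox7b2, a testis form of a cytochrome oxidase subunit, was at 5.19, 4.15 and 5.02 CPM against 0, 0.333 and 0.115.

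The other immunoproteasome subunits and the MHC class I pathway went with Psmb10. Of 9 members, 8 were higher and 0 lower in both fits, with a median of 1.55 and 1.66 relative to length. The heavy chain H2-K1 was at 93.5, 102 and 96.8 CPM in EpiLC and 17.5, 15.7 and 18.99 in mESC-ser, and H2-D1 at 25.4, 30.8 and 31.3 against 10.3, 10.7 and 10.4. Tapbp (tapasin), which loads peptides, was at 116, 129 and 131 CPM against 32.1, 32.5 and 40.7, and the peptide transporter Tap1 and the subunit Psmb9 were higher by 2.41-fold and 7.65-fold. Nlrc5, which activates transcription of this pathway, was low in both groups, at 1.60, 1.20 and 1.13 CPM against 0.826, 0.749 and 0.806, with a log2 fold change of 0.77 (SE 0.32). Its Benjamini-Hochberg adjusted p was 0.035 with edgeR's quasi-likelihood test and 0.13 with DESeq2. With 1 library left out that p was 0.054 to 0.15 and the call was lost, other than without EpiLC replicate 3, where p was 0.043. B2m, the light chain that heavy chains need, was not called, at 17.8, 15.9 and 19.5 CPM against 14.9, 13.4 and 12.8 and -1.35 from its length bin (it was called, at 0.53 and 0.51, without EpiLC replicate 2 or mESC-ser replicate 1). Heavy chain genes resemble each other, and reads may be divided between them.

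Markers of other cell types were examined because both cultures can hold differentiated cells, and their part in the differences was not tested. The markers of primitive endoderm summed to 263 to 269.6 CPM in the EpiLC libraries and 657 to 734 in the mESC-ser ones, mostly from matrix genes such as Sparc, Lama1 and Col4a1. Among its defining factors Gata6 was at 0.133, 0.437 and 0.126 CPM in EpiLC and 4.41, 3.41 and 4.78 in mESC-ser, Pdgfra was at least 11.8-fold lower in EpiLC, and Sox17, Hnf4a, Afp and Ttr did not pass the filter in either group. Of 13 tested members 10 were lower and 0 higher in both fits, with a median of -2.82, or -1.82 with genes at the floor set to their bound. The filter partly set that count, as 6 were lower and 0 higher among members with at least 10 counts in every library, without offsets.

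Trophectoderm and epithelial markers followed the same direction. They summed to 94.8 to 100.2 CPM in EpiLC and 284 to 318 in mESC-ser, and 10 of 12 were lower and 2 higher in both fits. Among members with at least 10 counts in every library, 4 were lower and 2 higher without offsets, so the filter partly set that count. Tfap2c, which is shared by naive cells and trophectoderm, was at 0.400, 1.09 and 1.88 CPM against 33.0, 32.0 and 38.7, and the keratin Krt8 at 15.9, 15.7 and 13.1 against 104, 99.0 and 113. Gata3 and Hand1 were at least 13.1-fold and 11.2-fold lower, and Elf5 did not pass the filter. Ascl2, a placental and Wnt-regulated factor, was higher, at 7.73, 6.99 and 8.16 CPM against 3.03, 1.998 and 2.36.

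The Zscan4 genes, which mark the rare cells of an ES culture that resemble the 2-cell embryo, were lower. All 7 tested members of that list were lower in both fits, among them Zscan4c at 4.80, 2.29 and 4.14 CPM in EpiLC and 37.5, 41.2 and 25.8 in mESC-ser. The list summed to 11.8 to 16.5 CPM in EpiLC and 116 to 163 in mESC-ser, so the filter partly set that count. The Zscan4 copies are nearly identical, so the value of each is uncertain, and mESC-ser replicate 3 was the lowest serum library for Zscan4c.

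Germ layer markers differed by gene. The mesoderm factor T was at 1.33, 1.09 and 1.63 CPM in EpiLC and 3.65, 4.41 and 4.95 in mESC-ser, Eomes at 9.99, 9.61 and 9.79 against 8.06, 7.57 and 10.1, and Mixl1 at 2.93, 1.53 and 1.26 against 0.207, 0.666 and 0.403. Kdr, a receptor of mesoderm progenitors, held 3 counts or fewer in each EpiLC library and 8.47, 7.66 and 9.73 CPM in mESC-ser, at least 21.6-fold lower. Of the neural factors, Pax6 was at 0.666, 0.218 and 0.502 CPM against 26.0, 24.3 and 24.6 and Sox1 at 1.33, 0.983 and 1.38 against 5.85, 5.74 and 8.63. The neural list summed to 67.3 to 71.6 CPM in EpiLC and 197 to 213 in mESC-ser, mostly from Tubb3, a neuronal tubulin, at 34.1, 35.5 and 33.9 against 97.4, 98.1 and 101, and from Nes (nestin), an intermediate filament, at 27.2, 28.6 and 29.8 against 56.1, 59.8 and 66.9. In all, 5 of 6 tested neural markers were lower and 0 higher in both fits, and 6 more did not pass the filter. Of 8 tested streak and mesoderm markers 2 were higher and 4 lower. With at least 10 counts in every library and no offsets, 3 neural markers were lower and 0 higher. Of the streak and mesoderm markers 1 was higher and 1 lower there, so the filter partly set both counts. Only 5 of 38 Hox genes passed the filter, of which 4 were lower. The Hox list summed to 4.64 to 5.99 CPM in EpiLC and 21.1 to 23.1 in mESC-ser, so the filter partly set that count.

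Fibroblast markers did not move as a group. Col1a1, a fibrillar collagen chain, was at 0.666, 2.51 and 1.26 CPM in EpiLC and 43.0, 45.9 and 58.5 in mESC-ser, while Thy1 was at 29.6, 31.7 and 27.4 against 4.27, 3.83 and 5.01. Dcn (decorin) held 3 counts or fewer in each mESC-ser library and 8.92, 6.77 and 9.79 CPM in EpiLC, at least 34.0-fold higher. Lum and Fap were at or near 0 counts in both groups, and the list summed to 42.4 to 46.8 CPM in EpiLC and 63.3 to 84.5 in mESC-ser. Of 6 tested markers 2 were higher and 4 lower in both fits. With at least 10 counts in every library and no offsets, 1 was higher and 1 lower, so the filter partly set that count.

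Germline genes, many of which DNA methylation silences, were divided. In both fits 7 of 15 were higher and 6 lower, whereas without offsets 8 and 6 were, or 5 and 6 with total-count scaling. Rpl10l, a ribosomal protein of the testis, was at 69.9, 77.4 and 82.0 CPM in EpiLC and 16.9, 16.5 and 16.5 in mESC-ser, and Mael, of the piRNA pathway, at 39.8, 42.6 and 37.5 against 21.8, 21.6 and 15.9, although Mael lay -0.096 from its length bin. Stra8, the gate to meiosis, was at 0.266, 0.546 and 0.502 CPM against 6.75, 5.41 and 6.27, and Ddx4 (Vasa) and Tex19.1, a retrotransposon regulator, were lower by 3.62-fold and 2.49-fold.

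Among imprinted genes, the maternally expressed noncoding RNAs of the Dlk1 locus were among those that were higher. Mirg was at 97.0, 97.3 and 99.4 CPM in EpiLC and 13.5, 14.7 and 14.3 in mESC-ser, Meg3 at 476, 510.2 and 551 against 159.5, 175 and 235, and Rian, from the same cluster, at 168, 158 and 165 against 157, 165 and 157. Meg3 and Mirg were higher in both fits, and Rian with offsets only, where its log2 fold change was 1.93. Peg10, a retrotransposon-derived gene of the placenta, was at 53.3, 53.3 and 62.5 CPM against 1115, 1086 and 1225, Igf2 at 2.66, 4.15 and 4.14 against 103, 110.5 and 122, and Mest at 16.6, 16.7 and 14.4 against 184, 175 and 183. The list held 4 higher and 8 lower of 16 in both fits.

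RNA of the epithelial cadherin differed little, while that of other junction genes differed more. Cdh1 (E-cadherin) was at 524, 504 and 489.6 CPM in EpiLC and 599, 584 and 629 in mESC-ser. It was not called without offsets, other than with total-count scaling. The claudins Cldn6 and Cldn7 were at 284, 288 and 308 CPM and 68.1, 70.0 and 69.7 CPM against 47.0, 45.4 and 56.1 and 12.8, 14.9 and 12.8. Tjp1 (ZO-1), the scaffold of tight junctions, was instead 6.78-fold lower, and Zeb1 and Zeb2, repressors of Cdh1, were lower by 17.3-fold and by at least 22.5-fold. In both fits 4 of 16 members were higher and 6 lower.

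Several enzymes that place or read histone marks were lower. Of the histone acetyltransferases, Crebbp (CBP) was at 2.53, 3.60 and 5.52 CPM in EpiLC and 101, 106 and 119.9 in mESC-ser, Ep300 at 49.8, 39.1 and 55.6 against 316, 318 and 373 and Kat6b at 24.5, 21.4 and 25.1 against 302, 297 and 361. Their log2 fold changes of -4.73 (SE 0.16), -2.73 (SE 0.11) and -3.69 (SE 0.10) came to -3.27, -1.27 and -2.23 relative to length. Hdac1 and Hdac2 were not called without offsets, whereas Hdac4 and the deacetylase Sirt1 were lower by 15.4-fold and 9.31-fold. Over 18 writers and erasers 3 were higher and 8 lower in both fits, beside 28.5% and 25.8% of all tested genes. Of 13 Polycomb genes 2 were higher and 6 lower in both fits, or 4 and 6 in the fit with offsets. Jarid2, a cofactor of PRC2, was at 125, 129 and 132 CPM against 774, 776 and 949.5 and Suz12, a core subunit, 5.30-fold lower. The catalytic subunit Ezh2 had a log2 fold change of -0.18 (SE 0.077) without offsets. It was called higher with length and GC offsets, but not with length offsets only or with those from the principal transcript.

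Smaller regulatory groups were mixed. Their counts stand beside 28.5% of all tested genes higher and 25.8% lower in both fits. Trp53 was not called, at 0.062 (SE 0.078), and its targets differed in direction, with Phlda3 higher by 3.85-fold, Perp lower by 4.33-fold and Cdkn1a not called, for 3 higher and 2 lower of 12 in both fits. The balance of this list turned, from 4 higher and 5 lower without offsets to 4 and 2 with them. Of the D cyclins, Ccnd2 was at 2.26, 1.97 and 1.13 CPM in EpiLC and 57.3, 56.8 and 62.1 in mESC-ser, while Ccnd1 was 1.67-fold higher, and their partner Cdk4 was at 1066, 1113 and 1081 against 463, 448 and 360.1. The list of G1 regulators gave 2 higher and 2 lower of 14 in both fits, and turned from 4 and 7 without offsets to 3 and 2 with them. Of the Notch receptors, Notch3 was 1.80-fold higher and Notch4 10.3-fold lower, the ligand Dll3 was at 32.8, 31.3 and 32.3 CPM against 5.03, 4.99 and 5.53, and the list gave 2 and 4 of 10. In the retinoic acid pathway, the binding protein Crabp2 was at 42.0, 43.0 and 47.5 CPM against 6.75, 8.07 and 5.76, the retinol receptor Stra6 was 7.36-fold higher and the degrading enzyme Cyp26a1 at least 4.90-fold lower, with 4 higher and 2 lower of 10. Of genes often used as references, Gusb was 2.87-fold higher in both fits, and Sdha was not called.

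**Figure D5:**
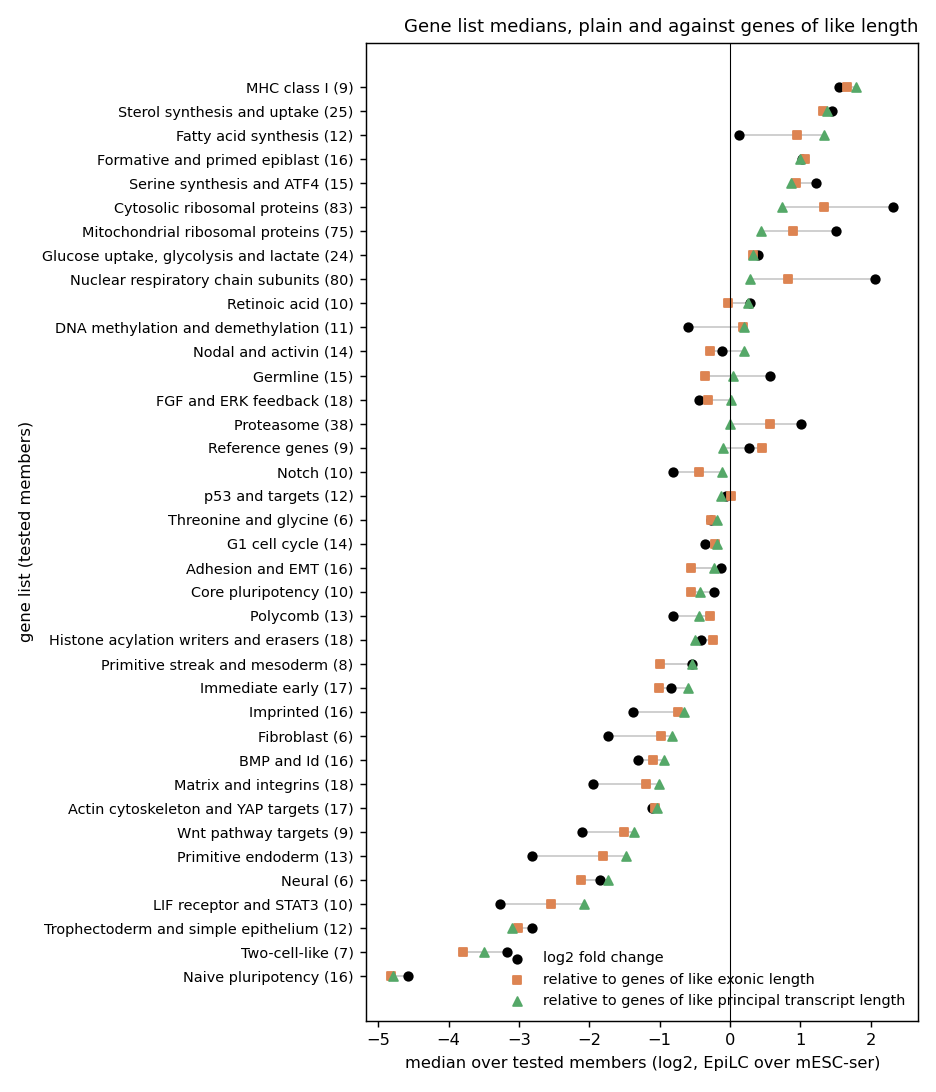
Median log2 fold change of EpiLC over mESC-ser (horizontal axis) for each gene list except the Hox genes (vertical axis), as fitted (circles), relative to genes of like exonic length (squares) and relative to genes of like principal transcript length (triangles), with the number of tested members in brackets. The naive list lies furthest to the left by all 3 measures, and the respiratory chain and cytosolic ribosomal lists move most between them.

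Outside the lists, the genes furthest above others of their length included Xist, the RNA that silences an X chromosome, at 19.7, 24.2 and 21.6 CPM in EpiLC and 0.895, 1.08 and 1.84 in mESC-ser. Xist lies antisense to Tsix, and without a stated strand setting reads of the pair cannot be told apart. Zfp467, a zinc finger factor, was at 34.1, 34.8 and 37.4 CPM against 1.10, 1.998 and 1.84, and Jph4, a junctophilin of neurons, at 117, 119 and 125 against 8.47, 9.66 and 12.4. Lars2, the mitochondrial leucyl-tRNA synthetase, was at 584, 292 and 1175 CPM in EpiLC and 82.2, 95.1 and 70.9 in mESC-ser, and its EpiLC libraries spread widely. Tmem91, Mir670hg, Xlr3a, a member of an X-linked family of near-identical copies, and Ebpl completed the 8, with length-relative differences of 4.77, 4.55, 4.42 and 4.02. On the lower side all 8 held 3 counts or fewer in each EpiLC library. They were Inhbb, a chain of activin B and inhibin, at 34.9, 33.5 and 43.5 CPM in mESC-ser and at least 93.3-fold lower, the adhesion molecule Ceacam1 at least 53.1-fold, the copper transporter Atp7a at least 51.9-fold, Lrrc8b, a subunit of volume-regulated anion channels, at least 17.7-fold with 0, 0 and 0 counts in EpiLC, the oocyte gene Khdc3 at least 47.2-fold, Foxi3 at least 38.0-fold and the trypsin inhibitor Spink1 at least 23.7-fold. The eighth, Rbpj-ps3, is a processed pseudogene of the Notch effector Rbpj, at least 187-fold lower, and its reads may come from a related sequence.

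The fits without and with offsets called 171 genes in opposite directions, 35 from higher to lower and 136 from lower to higher. R3hdm1, with a summed exonic length of 31486 bp, went from -1.10 to 0.98, and Unc13b and Rabgap1l from -0.87 and -0.85 to 0.90 and 1.09. The principal transcript of R3hdm1 has 4795 bp, and with offsets from that length it was not called. The short genes Snora43, Snora73b and Fam25c went from 0.87, 1.28 and 0.90 to -1.10, -0.53 and -0.55.

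On GRCm38, Fgf8 lies at chr19:45736798-45742915, Lefty1 at chr1:180935022-180938400, Tet2 at chr3:133463679-133545139, Klf4 at chr4:55527143-55532466, Socs3 at chr11:117966079-117970047, Thbs1 at chr2:118111876-118127133, Slc16a3 at chr11:120948480-120960868 and Dcn at chr10:97479609-97518143, and each value is over the exons of the whole gene. Exons of Aldoa, Axin2, Bcl3, Bmp4, Ccn2, Ccnd1, Ccnd2, Cdk4, Cish, Col4a1, Dnmt3a, Dnmt3l, Eomes, Ep300, Ezh2, Fdft1, Fgf15, Fn1, Foxd3, Gata3, Gata6, Gcat, Hdac4, Hmgcs1, Id4, Igf2, Itgav, Junb, Jund, Khdc3, Krt8, Lef1, Meg3, Mest, Mir670hg, Mirg, Nid1, Nlrc5, Notch3, Notum, Otx2, Pdgfra, Pim1, Pkm, Pou3f1, Pou5f1, Psmb9, Psmd1, Psph, Rabgap1l, Rian, Sirt1, Smad5, Snora43, Snora73b, Sox1, Srebf1, Stat3, Suz12, Tagln, Tap1, Tapbp, Tdh, Tead2, Tet2, Tfcp2l1, Thbs1, Tmem91, Trim71, Xist, Zeb1 and Zeb2 share positions with those of another gene, as do those of 32.7% of tested genes, so their values may hold reads of the neighbour.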

How the data were processed

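RNA-seq counts of 3 EpiLC and 3 mESC-ser libraries were used. Per the labels and the study's methods, the authors trimmed 50 bp single-end reads with Trim Galore 0.6.6, aligned them to mm10 with HISAT2 2.2.1 and counted them per Ensembl gene with featureCounts (Subread 2.0.1), and they deposited the counts without normalization. The annotation release, strand setting and handling of multiple alignments are not given in the sources used here.

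The deposited counts were fitted with edgeR 4.0.16 (R 4.3.3, limma 3.58.1) on the 6 libraries, after filterByExpr and TMM scaling, with group as the only term. Both thresholds are values the study names for tests of its own, although its edgeR analysis, of lactate-treated myoblasts, used a nominal p. A second fit added offsets per library, as natural splines with 5 degrees of freedom of log2 exonic length and of GC content from GENCODE annotation of GRCm38, for 15150 of the 15345 genes. CPM were scaled by TMM over all 9 libraries. SE came from the F statistic. A group with at most 3 counts in each library was taken as at the floor, and its fold is a lower bound. The floor covers counting error alone, as PCR copies could not be recognised. Identifiers without annotation held 0.596% to 0.827% of the counts of a library.

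Genes were named from 39 gene lists (largest differences, defining members and members that differ from their list), and outside them as the 8 genes per direction with the largest length-relative difference, among those called in both fits whose groups do not overlap in CPM, whose higher group averages 100 counts or more and whose symbol is no clone name, and the 3 per direction called oppositely by the fits. Cell type markers are among these lists. Some members that these rules name are not reported here. The comparison, its lists and its rules were chosen with earlier results of these data known, so p-values are given over all tested genes only. Promoter sequences are from RefSeq (GRCm38.p6), with windows of 10397 tested genes. Steps were tested on simulated data. The effect of DESeq2 1.42.0 and of other scalings, filters, offsets, thresholds and libraries is given at the end.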

Additional observations from a re-analysis of the deposited data

How the results depend on the processing

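The count of called genes stayed within 1.5 times of 11246 under each alternative run. It was 11227 with RLE and 11235 with upper-quartile scaling, 10984 with DESeq2, 11229 with edgeR's classic exact test, 10012 in a test against the minimum fold, 13007 without a filter on low counts, 9210 among genes with at least 10 counts in every library, 11511 with all 9 libraries in one fit, 10984 at a nominal p under 0.01, and 11183 to 11446 with 1 library left out. Leaving out 1 library gave 10040 to 10201 calls with offsets and 8310 to 8463 in both fits. At an absolute log2 fold change over 1, 6333 genes were called with offsets and 5242 in both fits, beside 10050 and 8327, by construction fewer. Over all tested genes with a length, the shares of counts were 18.6% and 6.82% (EpiLC and mESC-ser) for the shortest eighth and 7.14% and 19.4% for the longest.

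Replicate numbers gave little sign of pairing, although a weak pairing is not excluded. Same-numbered deviations from the group means correlated at 0.0134, 0.0185 and 0.0373 across genes, and the other pairs at -0.0422 to 0.026. Of the 3 EpiLC libraries 1 correlated best with another number and the rest with their own. With a replicate block 11207 genes were called, and 10006 with offsets. Of the 231 genes named, the block without offsets ended the call of Nlrc5, at an adjusted p of 0.052, and changed no other.

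Of these 231 genes, those that lost their call with total-count scaling were Actb, Ccnd1, Dusp6, Hmgcs1, Lef1, Nlrc5, Nodal, Srebf1, Tagln2 and Uhrf1, none changed direction, and those that gained one were Acaca, Cdh1, Col18a1, Dppa2, Etv5, Ezh2, Fasn, Foxd3, Id3, Pkm, Sdha and Tpm1. Calls were also lost by Actb, Cish, Nlrc5, Nodal, Smad1, Tagln2 and Uhrf1 in the test against the minimum fold, by Actb, Nlrc5, Nodal, Tagln2 and Uhrf1 without a filter, by Nlrc5, Nodal, Tagln2 and Uhrf1 with all 9 libraries, by Actb, Nodal, Tagln2 and Uhrf1 with at least 10 counts in every library (where 193 of the genes were tested), by Tagln2 with upper-quartile scaling, by Nlrc5 with DESeq2 and at a nominal p under 0.01, and by the 26 genes whose absolute log2 fold change lay between 0.5 and 1 at a threshold of 1. Etv5 gained a call without a filter, with all 9 libraries and with at least 10 counts in every library, as did Tpm1 without a filter. RLE scaling and the classic exact test changed no call of these genes. Directions changed under offsets alone, and the log2 fold changes of the genes concerned were as follows. With length and GC offsets they were Acaca 1.19, Ezh2 0.64, Fam25c -0.55, Fasn 0.51, Lama5 0.049, R3hdm1 0.98, Rabgap1l 1.09, Snora43 -1.10, Snora73b -0.53, Tagln2 -0.010, Tcf15 -0.75, Tet3 0.52 and Unc13b 0.90. With the replicate block as well they were Acaca 1.19, Ezh2 0.64, Fam25c -0.54, Fasn 0.51, Lama5 0.049, R3hdm1 0.98, Rabgap1l 1.09, Snora43 -1.10, Snora73b -0.52, Tagln2 -0.0076, Tcf15 -0.75, Tet3 0.52 and Unc13b 0.90. With length offsets only they were Acaca 1.28, Fam25c -0.33, Fasn 0.86, Lama5 0.43, R3hdm1 0.80, Rabgap1l 0.86, Snora43 -0.93, Snora73b -0.32, Srebf2 0.68, Tet3 0.78 and Unc13b 0.83. With offsets from the principal transcript, chosen after seeing the data, they were Acaca 1.27, Cdh1 0.51, Fam25c -0.78, Fasn 0.85, Hsd17b7 0.88, Lama5 0.42, Smad2 0.35, Smad5 0.055, Snora43 -0.94, Snora73b -0.58, Tagln2 -0.055, Tcf15 -0.86 and Unc13b 0.23. The length-relative difference changed sign for Jund at -0.081 with 10 bins and, with principal transcript length, for Flna 0.29, Mael 0.34, Nes 0.0020, Nodal 0.13, R3hdm1 -0.29, Rabgap1l -0.76, Smad2 0.42, Smad5 0.030 and Utf1 0.095. DESeq2 and the classic test were not run with offsets. Low counts limit the precision of genes under about 1 CPM, and 388 tested genes in EpiLC and 46 in mESC-ser were at the floor, where only bounds can be given. The causes of the changes between scalings were not tested.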

Other observations

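The mESC-2i libraries, of naive cells, entered the scaling of CPM and the alternative fit of all 9 libraries, but no other fit. Their levels for some genes named in the report were as follows. Dppa5a, the 1 naive gene that was not lower in EpiLC, stood at 670.1, 759.5 and 475 CPM in mESC-2i replicates 1, 2 and 3, Pim2 at 12.5, 13.5 and 12.2 and Dnmt3b at 66.6, 57.0 and 64.5. H2-K1 was at 13.5, 14.3 and 13.04 CPM, Slc2a3 at 1553, 1484 and 1579 and Ccn1 at 14.51, 13.01 and 11.6. Dcn was at 0.379, 0.417 and 0.628 CPM and Lars2 at 156, 154 and 87.0, and the Lars2 libraries of mESC-2i also differed among themselves. Hprt, the hypoxanthine phosphoribosyltransferase often used as a reference gene, did not pass the filter and stood at 0.799, 0.328 and 0.377 CPM in EpiLC, at 0.551, 0.416 and 0.403 in mESC-ser and at 0.631, 0.250 and 0.236 in mESC-2i.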
